A study of Mus musculus with 9 samples.

Results

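Messenger RNA of 5 genes of the Ms4a family was followed in whole mouse lung after bleomycin injury, with and without the drug homoharringtonine. The 5 genes are Ms4a4a, Ms4a4c, Ms4a6c, Ms4a6d and Ms4a7. They are every gene whose symbol starts with Ms4a, apart from the B cell gene Ms4a1, in the authors' lists of 3 comparisons, which hold 2129 of the 41345 probe sets of the array. The authors listed a probe set when its fold change was at least 1.5 and its adjusted p, from a test labelled LPE, was under 0.05. Each of the 5 genes had 1 probe set, and it was chosen by its fold change and adjusted p in these same comparisons, so differences between groups are given as a description and carry no test of their own.

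The lungs came from male C57BL/6J mice aged 11 weeks, with 3 arrays in each of 3 groups. In the first group, bleomycin (2 U/kg) was placed in the trachea at 8 weeks of age and homoharringtonine (0.545 mg/kg) was injected into the peritoneum 2 times a week for 15 days, starting on day 5. In the second group, the same dose of bleomycin was followed by vehicle injections. In the third group, phosphate-buffered saline took the place of bleomycin and vehicle was injected. Bleomycin is a DNA-damaging drug whose instillation injures the alveoli and leads to inflammation and scarring in rodents, and homoharringtonine is a plant alkaloid that inhibits protein synthesis. The labels name the tissue of each array as the lung of a mouse and do not say whether any mouse gave more than 1 array, so the spread given below is that between arrays.

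Ms4a genes encode small membrane proteins that cross the membrane several times, and most of them lie in one cluster on mouse chromosome 19. The family is best known from Ms4a1, the B cell surface protein CD20, and Ms4a2, the beta chain of the IgE receptor of mast cells, but many members are made by monocytes and macrophages. In human macrophages, MS4A4A is induced by interleukin-4 and by glucocorticoids and associates with the beta-glucan receptor dectin-1. Ms4a7 is a macrophage gene in mouse and human, Ms4a6c and Ms4a6d are expressed in mouse monocytes and macrophages, and Ms4a4c is a mouse gene induced by interferon in several kinds of leukocyte.

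RefSeq (assembly GRCm38.p6) places 21 Ms4a genes in the mouse genome. Only 6 of them, Ms4a1 and the 5 described here, were named in the authors' lists, and the other 15 are not analysed here because probe sets outside the lists carried no gene name. In the coordinates of the authors' tables, whose genome build the labels and tables used here do not name, Ms4a7 (gene 109225) occupies chromosome 19 from 11321039 to 11336144 on the minus strand and is read by 24 probes. Its neighbour Ms4a4a (gene 666907, 20 probes) lies from 11375523 to 11392790 on the plus strand. Ms4a4c (gene 64380, 9 probes) follows from 11404770 to 11427246 on the plus strand. Ms4a7, Ms4a4a and Ms4a4c are consecutive in the RefSeq order of the family. Ms4a6c (gene 73656, 17 probes) lies from 11469368 to 11482197 on the plus strand. Ms4a6d (gene 68774, 15 probes) lies from 11586604 to 11604849 on the minus strand. Every one of the 5 probe sets overlaps the RefSeq gene with the same identifier, and the authors' tables give cross-hybridisation type 1, the array maker's class for unique matches, for each of them.

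Promoter sequences from RefSeq (GRCm38.p6) are shown because neighbouring genes of this cluster had different patterns across the groups. Each window holds 250 bases before and 50 bases after a start site, 5′ to 3′ on the strand of the gene, and capitals mark a match to a searched motif. The Ms4a4a window is chr19:11375238-11375537 (plus strand), the Ms4a6c window chr19:11469118-11469417 (plus), the Ms4a7 window at its outer start site chr19:11336097-11336396 (minus) and the Ms4a4c window chr19:11407411-11407710 (plus), whose start site lies inside the span that the authors' tables give the gene.
Ms4a4a: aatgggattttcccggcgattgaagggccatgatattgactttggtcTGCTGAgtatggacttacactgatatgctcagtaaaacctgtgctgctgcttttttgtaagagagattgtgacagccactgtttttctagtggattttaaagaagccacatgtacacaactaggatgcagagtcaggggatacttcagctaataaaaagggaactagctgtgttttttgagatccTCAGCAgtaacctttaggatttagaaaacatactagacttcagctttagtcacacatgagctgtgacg
Ms4a6c: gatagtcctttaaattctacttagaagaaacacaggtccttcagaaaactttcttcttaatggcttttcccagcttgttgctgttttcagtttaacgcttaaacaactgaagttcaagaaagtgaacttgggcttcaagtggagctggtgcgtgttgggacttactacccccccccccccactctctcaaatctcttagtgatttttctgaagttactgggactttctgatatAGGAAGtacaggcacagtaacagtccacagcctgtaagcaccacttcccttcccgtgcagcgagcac
Ms4a7: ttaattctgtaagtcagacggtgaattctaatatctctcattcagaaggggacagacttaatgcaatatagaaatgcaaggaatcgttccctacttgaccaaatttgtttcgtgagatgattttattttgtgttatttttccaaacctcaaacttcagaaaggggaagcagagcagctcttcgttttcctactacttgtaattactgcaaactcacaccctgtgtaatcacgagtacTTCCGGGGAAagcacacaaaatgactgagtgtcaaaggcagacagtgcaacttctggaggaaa
Ms4a4c: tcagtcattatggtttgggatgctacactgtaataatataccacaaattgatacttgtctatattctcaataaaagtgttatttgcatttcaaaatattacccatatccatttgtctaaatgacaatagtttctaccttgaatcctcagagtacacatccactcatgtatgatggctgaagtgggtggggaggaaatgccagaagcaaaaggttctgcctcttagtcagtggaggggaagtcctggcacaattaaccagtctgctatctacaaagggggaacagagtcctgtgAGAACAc

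The motifs were read on both strands of the 5 windows that RefSeq gives for 4 of the 5 genes, and no match overlapped another. The TGCTGA site of MAF factors, transcription factors that act in macrophages, was found in the Ms4a4a window alone, 203 bases before the start site on the strand of the gene and 18 bases before it on the opposite strand. This motif occurs in 19.5% of the 32851 mouse windows of the same length. The core of the myeloid factor PU.1 and other ETS proteins (AGGAAG, 35.4% of windows) was found 17 bases before the start of Ms4a6c. The palindromic STAT motif (6.95% of windows) was found 13 bases before the outer start of Ms4a7. The glucocorticoid receptor hexamer (AGAACA, 19% of windows) was found at position 44 after the start of Ms4a4c and, in the second Ms4a7 window, 35 bases before the start on the opposite strand. That second window also held the AP-1 motif (TGANTCA, 7.81% of windows), 81 bases before the start. The C/EBP motif (TTGCNNAA, 10.8%) and the interferon response motif (3.44%) had no match in the 5 windows. These matches describe letters in a window and are not evidence of binding.

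Array values are log2 signals as the authors deposited them, on which a step of 1 is a doubling. Over the 9 arrays, the lower quartile of all probe sets lay between 3.21 and 3.24, the median between 4.49 and 4.57 and the upper quartile between 5.91 and 6.00. Levels of different probe sets depend on their probes and are not compared with each other. Differences were estimated with limma, a linear model fitted to all 41345 probe sets of the 9 arrays with Benjamini-Hochberg adjustment. A probe set is called where its limma adjusted p is under 0.05. The authors' LPE test is a different one, so their listing and a call here can differ. Limma called 7.78% of probe sets between bleomycin and vehicle, 0.0943% between homoharringtonine with bleomycin and bleomycin alone, and 0.506% between homoharringtonine with bleomycin and vehicle. Of 12 genes of type 2 alveolar epithelium, a defining cell type of lung, 6 were in the authors' lists. These 6 averaged 9.98 to 10.1 on the log2 scale in the vehicle arrays, above the upper quartile of all probe sets. In whole lung RNA, fewer cells of a type and less RNA per cell cannot be told apart.

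Ms4a4a was high in bleomycin-injured lungs without the drug and close to the vehicle level in injured lungs given homoharringtonine. Its log2 signal was 4.44, 4.71 and 5.32 with homoharringtonine and bleomycin, against 6.59, 7.37 and 7.62 with bleomycin and 4.54, 4.59 and 4.81 with vehicle. All 3 bleomycin arrays lay above all 6 other arrays, while the homoharringtonine and vehicle arrays overlapped. The group means were 4.82 ± 0.45 with homoharringtonine and bleomycin, 7.19 ± 0.54 with bleomycin and 4.65 ± 0.14 with vehicle (SD, n = 3 each). Ms4a4a was thus 5.17-fold lower with homoharringtonine and bleomycin than with bleomycin (log2 difference -2.37, SE 0.29) and 5.82-fold higher with bleomycin than with vehicle (2.54, SE 0.29). Homoharringtonine with bleomycin differed from vehicle by 0.17 (SE 0.29). Only 4 of the 41345 probe sets had a lower difference between homoharringtonine with bleomycin and bleomycin, and the bleomycin difference ranked 29 from the top. Both ranks come from values used in choosing the gene, so nothing is read from them.

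Ms4a6d was high with bleomycin too, but with the drug it stayed above the vehicle arrays. Its log2 signal was 5.38, 5.35 and 6.54 with homoharringtonine and bleomycin, against 6.60, 7.27 and 7.20 with bleomycin and 4.84, 4.67 and 4.67 with vehicle. The 3 groups did not overlap, although the highest homoharringtonine array was only 0.0626 below the lowest bleomycin array and more than 1 log2 unit above the other homoharringtonine arrays. The means were 5.76 ± 0.68 with homoharringtonine and bleomycin, 7.02 ± 0.37 with bleomycin and 4.73 ± 0.10 with vehicle (SD, n = 3 each). Ms4a6d was 2.41-fold lower with homoharringtonine and bleomycin than with bleomycin (log2 difference -1.27, SE 0.31), 4.91-fold higher with bleomycin than with vehicle (2.30, SE 0.31), and 2.04-fold higher with homoharringtonine and bleomycin than with vehicle (1.03, SE 0.31). With group medians in place of means the first of these differences was -1.82. The authors' deposited table for the last comparison did not list Ms4a6d, although its fold change was above 1.5.

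Ms4a7 had nearly the same mean in injured lungs with homoharringtonine as without it. Its log2 signal was 6.47, 5.64 and 7.03 with homoharringtonine and bleomycin, against 6.98, 6.46 and 5.74 with bleomycin and 4.78, 4.76 and 5.08 with vehicle. The arrays of both bleomycin-treated groups ran over the same range, and all 6 lay above the 3 vehicle arrays. The means were 6.38 ± 0.70 with homoharringtonine and bleomycin, 6.39 ± 0.62 with bleomycin and 4.88 ± 0.18 with vehicle (SD, n = 3 each). Against vehicle, Ms4a7 was 2.84-fold higher with homoharringtonine and bleomycin (log2 difference 1.5, SE 0.38) and 2.86-fold higher with bleomycin (1.52, SE 0.38). Between homoharringtonine with bleomycin and bleomycin the difference was -0.01 (SE 0.38), and it ran from -0.34 to 0.36 when each array was left out in turn. It was the only one of the 5 genes that the authors' deposited table listed between homoharringtonine with bleomycin and vehicle.

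Ms4a6c had the smallest bleomycin difference of the 5. Its log2 signal was 5.84, 5.20 and 6.33 with homoharringtonine and bleomycin, against 5.99, 6.66 and 6.43 with bleomycin and 5.33, 5.65 and 5.91 with vehicle. The bleomycin arrays lay above the vehicle arrays by a gap of 0.0769, and the homoharringtonine arrays overlapped both other groups. The means were 5.79 ± 0.57 with homoharringtonine and bleomycin, 6.36 ± 0.34 with bleomycin and 5.63 ± 0.29 with vehicle (SD, n = 3 each). The log2 differences were -0.57 (SE 0.29) for homoharringtonine with bleomycin over bleomycin, 0.73 (SE 0.29) for bleomycin over vehicle and 0.16 (SE 0.29) for homoharringtonine with bleomycin over vehicle. Ms4a6c stood just inside the authors' listing, at 1.65-fold between bleomycin and vehicle, and just outside it, at 1.48-fold lower with homoharringtonine and bleomycin than with bleomycin.

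Ms4a4c ran opposite to the other 4 genes. Its log2 signal was 4.66, 4.23 and 4.84 with homoharringtonine and bleomycin, against 4.15, 4.23 and 3.73 with bleomycin and 5.44, 5.44 and 5.96 with vehicle. Every bleomycin-treated array, with or without the drug, lay below every vehicle array, and the lowest homoharringtonine array exceeded the highest bleomycin array by only 0.00154. The means were 4.58 ± 0.32 with homoharringtonine and bleomycin, 4.04 ± 0.26 with bleomycin and 5.61 ± 0.30 with vehicle (SD, n = 3 each). Ms4a4c was 1.45-fold higher with homoharringtonine and bleomycin than with bleomycin (log2 difference 0.54, SE 0.21). It was 2.98-fold lower with bleomycin than with vehicle (-1.58, SE 0.21) and 2.05-fold lower with homoharringtonine and bleomycin than with vehicle (-1.04, SE 0.21). The authors' deposited tables listed it between bleomycin and vehicle only. The B cell gene Ms4a1, set aside by the choice of genes, had log2 differences of 1.55, -2.58 and -1.03 in the same order of comparisons.

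**Figure D1:**
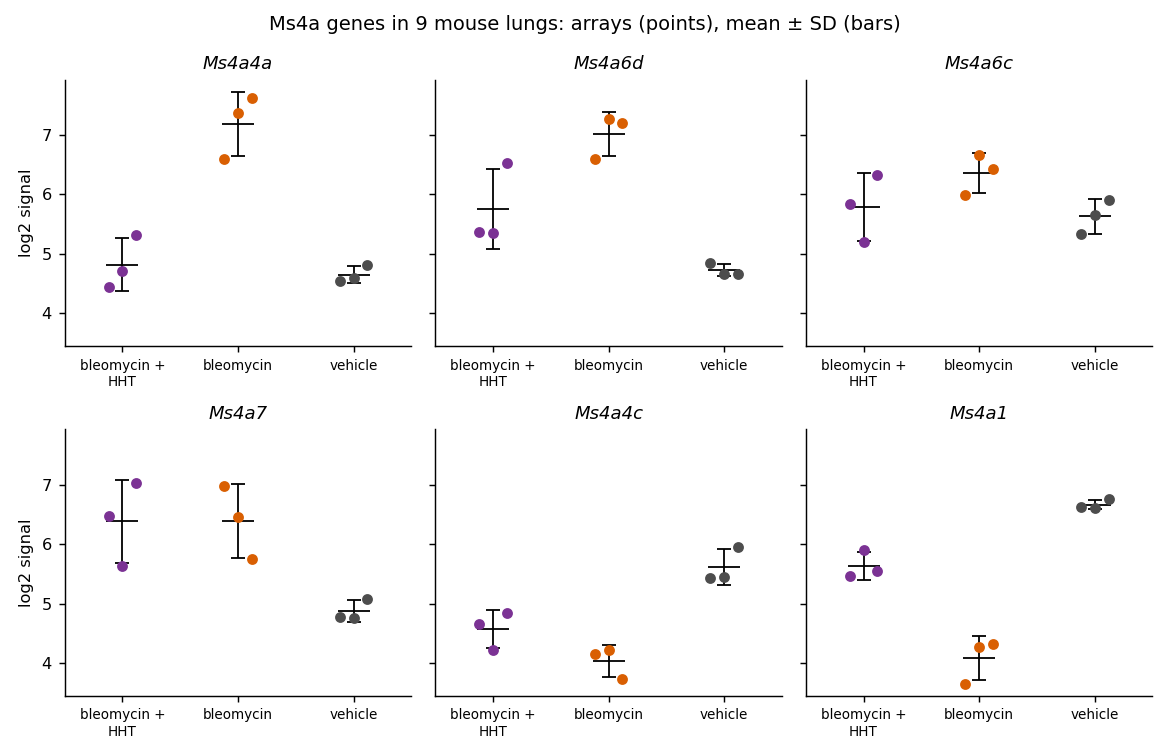
Log2 signal of the 5 Ms4a genes, and of Ms4a1, on each of the 9 arrays, with 1 panel per gene and the groups in the order bleomycin with homoharringtonine (HHT), bleomycin and vehicle. Points are arrays and bars are group means with SD (n = 3 each). Ms4a4a stands high only in the 3 bleomycin arrays (6.59 to 7.62), and Ms4a4c is highest in the vehicle arrays (5.44 to 5.96). Ms4a7 has nearly the same mean with homoharringtonine and bleomycin (6.38 ± 0.70) as with bleomycin (6.39 ± 0.62), with a wide spread in both groups.

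Between bleomycin and vehicle, limma called 3 of the 5 genes higher (Ms4a4a, Ms4a6d and Ms4a7), where 3.37% of all probe sets were called higher, and 1 lower (Ms4a4c), where 4.42% were called lower. Over the array these shares stand for 1392 probe sets higher and 1826 lower, against 1738 higher and 1497 lower after median and MAD scaling. Ms4a6c was not called. The groups did not overlap for 4 genes higher and 1 lower, against 13.9% and 14.1% of all probe sets. The call of Ms4a7 was lost in 6 of the 9 fits that left out 1 array, those without vehicle replicate 1, 2 or 3, bleomycin replicate 1 or 2, or homoharringtonine replicate 1, in which its difference lay within 1.22 to 1.62. Because all 3 comparisons were used in choosing the genes, nothing is read from these shares and medians or from those of the other comparisons below. The authors listed all 5 genes in this comparison, so their median difference is fixed in part by that listing. It was 1.52, beside 0.02 for all probe sets.

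Between homoharringtonine with bleomycin and bleomycin, limma called Ms4a4a lower and none of the other 4, where 0.0387% of all probe sets were called higher and 0.0556% lower. The groups did not overlap for 2 genes lower (Ms4a4a and Ms4a6d) and 1 higher (Ms4a4c), against 7.79% and 6.19% of all probe sets. The call of Ms4a4a held without bleomycin replicate 1 or homoharringtonine replicate 3 and was lost without any other single array, where 0 or 1 probe sets were called in the whole array. Its difference ran from -2.67 to -2.16 over the 9 fits. The authors' deposited table listed Ms4a4a and Ms4a6d. This comparison was also used in choosing the genes, so the call and these shares are a description and not a test. The median difference of the 5 was -0.57, beside -0.00419 for all probe sets.

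Between homoharringtonine with bleomycin and vehicle, limma called 0 of the 5 genes, where 0.193% of all probe sets were called higher and 0.312% lower, while 3 genes had an unadjusted p under 0.05 and the authors' deposited table listed Ms4a7. The groups did not overlap for Ms4a6d and Ms4a7, which were higher, and for Ms4a4c, which was lower, against 9.46% and 11.7% of all probe sets. The median difference of the 5 was 0.17, beside 0.00301 for all probe sets. This comparison too was used in choosing the genes, so nothing is read from its shares or p-values. The 3 comparisons share arrays in pairs, so their values for a gene are set side by side and not correlated.

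**Figure D2:**
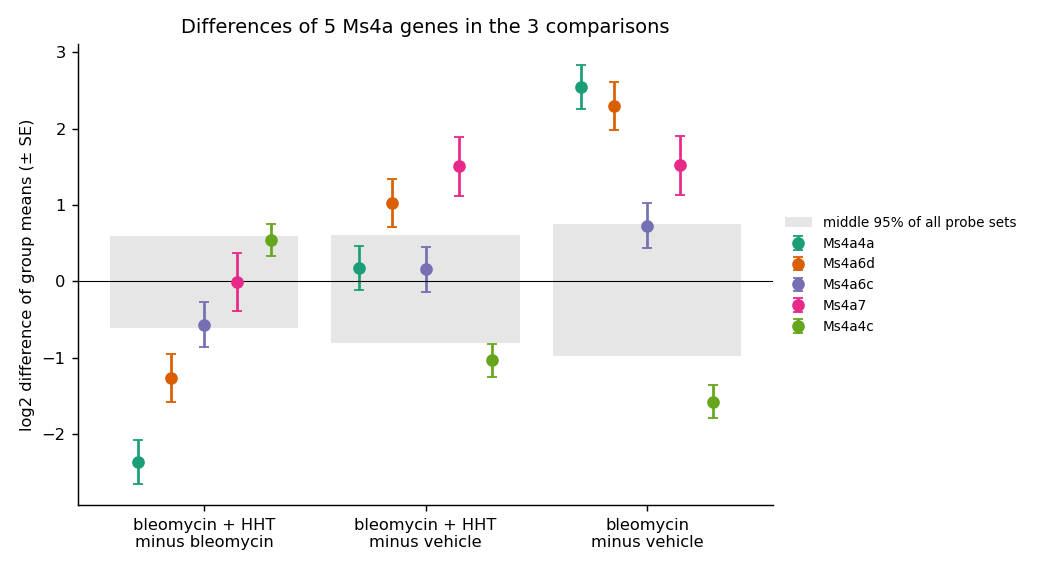
Log2 difference with its SE for each Ms4a gene in the 3 comparisons, from the limma fit on 9 arrays, with bleomycin plus homoharringtonine (HHT) over bleomycin on the left, then over vehicle, then bleomycin over vehicle. The gray bar holds the middle 95% of all 41345 probe sets, which for bleomycin over vehicle is -0.97 to 0.75. Ms4a4a lies far below the bar on the left (-2.37) and inside it in the middle (0.17). Ms4a7 lies inside it on the left (-0.01) and above it in the middle (1.5). The genes were chosen by their fold change in these comparisons, so a place outside the bar follows in part from that choice.

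Within each array, the log2 signal of Ms4a4a minus that of Ms4a7 set these neighbours against each other without any scale shared between arrays, and only its change between groups is described. This value was -2.04, -0.93 and -1.72 with homoharringtonine and bleomycin, against -0.39, 0.91 and 1.87 with bleomycin and -0.24, -0.17 and -0.27 with vehicle. The homoharringtonine arrays lay below all 6 others. The bleomycin arrays spread to both sides of the vehicle arrays, with group means of -1.56 with homoharringtonine and bleomycin, 0.80 with bleomycin and -0.23 with vehicle. After removal of the group means, the deviations of Ms4a4a and Ms4a6d over the 9 arrays had a Pearson r of 0.841, those of Ms4a6c and Ms4a6d 0.740, those of Ms4a7 and Ms4a4c 0.845, and those of Ms4a4a and Ms4a7 -0.143. These are descriptions over 9 arrays that share 3 groups and 1 normalisation.

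Macrophage genes moved with the same injury. Of a list of 23 macrophage genes, 18 had a named probe set, and their mean log2 signal was 7.45, 7.27 and 7.73 on the homoharringtonine arrays, against 8.16, 8.42 and 8.10 with bleomycin and 6.51, 6.49 and 6.47 with vehicle. The 3 groups did not overlap, and their summed signals ran from 4131 to 5529, from 8016 to 10764 and from 2423 to 2674 in that order. Among them Trem2, a lipid-sensing receptor, differed by -0.58 for homoharringtonine with bleomycin over bleomycin, 1.70 for bleomycin over vehicle and 1.12 for homoharringtonine with bleomycin over vehicle. The matrix protein Spp1 differed by -1.20, 4.54 and 3.34, and the endosomal marker Cd68 by -0.79, 1.97 and 1.18.

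Limma called 17 of the 18 macrophage genes higher with bleomycin than with vehicle (median 1.64). With homoharringtonine and bleomycin it called 1 lower than with bleomycin, the lysosomal protease Lgmn (-0.89, adjusted p 0.0460), with a median of -0.73, and 8 higher than with vehicle, with a median of 0.95. The single lower call became 2 without bleomycin replicate 1 and 0 without any other one array. Without single arrays the count of 8 ran from 1 to 9, with 1 without vehicle replicate 2 or 3 or homoharringtonine replicate 3, and 4 without vehicle replicate 1 or homoharringtonine replicate 1. A gene carries a name here only where the authors listed its probe set, so such counts are fixed in part by that listing: limma called 33.2% of the 2010 named probe sets higher and 47% lower between bleomycin and vehicle, and 2.99% higher and 4.38% lower between homoharringtonine with bleomycin and vehicle. The named shares between homoharringtonine with bleomycin and bleomycin were 0.498% higher and 0.995% lower. The median differences of all named probe sets were 0.19 for homoharringtonine with bleomycin over bleomycin, -0.67 for bleomycin over vehicle and -0.26 for homoharringtonine with bleomycin over vehicle.

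Each Ms4a signal was also set against the mean of these 18 macrophage genes on the same array. The 18 are only those the authors listed as changed, 17 of them called higher with bleomycin, so the mean is fixed in part by that listing and does not stand for macrophage genes without a name here. The signal of Ms4a4a minus the list mean was -2.66 ± 0.31 with homoharringtonine and bleomycin, -1.04 ± 0.54 with bleomycin and -1.84 ± 0.16 with vehicle (SD, n = 3 each), and none of the 3 groups overlapped. The drug difference of this value was -1.62, and it ran from -1.89 to -1.35 when each array was left out in turn. Relative to the list, Ms4a4a was 0.82 lower on the log2 scale with homoharringtonine and bleomycin than with vehicle, where the gene alone differed by 0.17.

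Relative to the list, Ms4a7 was -1.10 ± 0.48 with homoharringtonine and bleomycin, -1.83 ± 0.60 with bleomycin and -1.61 ± 0.20 with vehicle, and all 3 groups overlapped. Ms4a6d was -1.73 ± 0.47 with homoharringtonine and bleomycin, -1.21 ± 0.33 with bleomycin and -1.76 ± 0.08 with vehicle (SD, n = 3 each). Its homoharringtonine arrays overlapped both other groups on this scale, while bleomycin and vehicle did not overlap. Ms4a6c, minus the list, differed by 0.18 for homoharringtonine with bleomycin over bleomycin and by -1.01 for bleomycin over vehicle, so its bleomycin difference had the opposite sign from that of the gene alone. Ms4a4c minus the list differed by 1.29, -3.31 and -2.03 in the 3 comparisons, with no overlap in any of them. Whether the number of macrophages or their RNA per cell set these values was not tested.

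**Figure D3:**
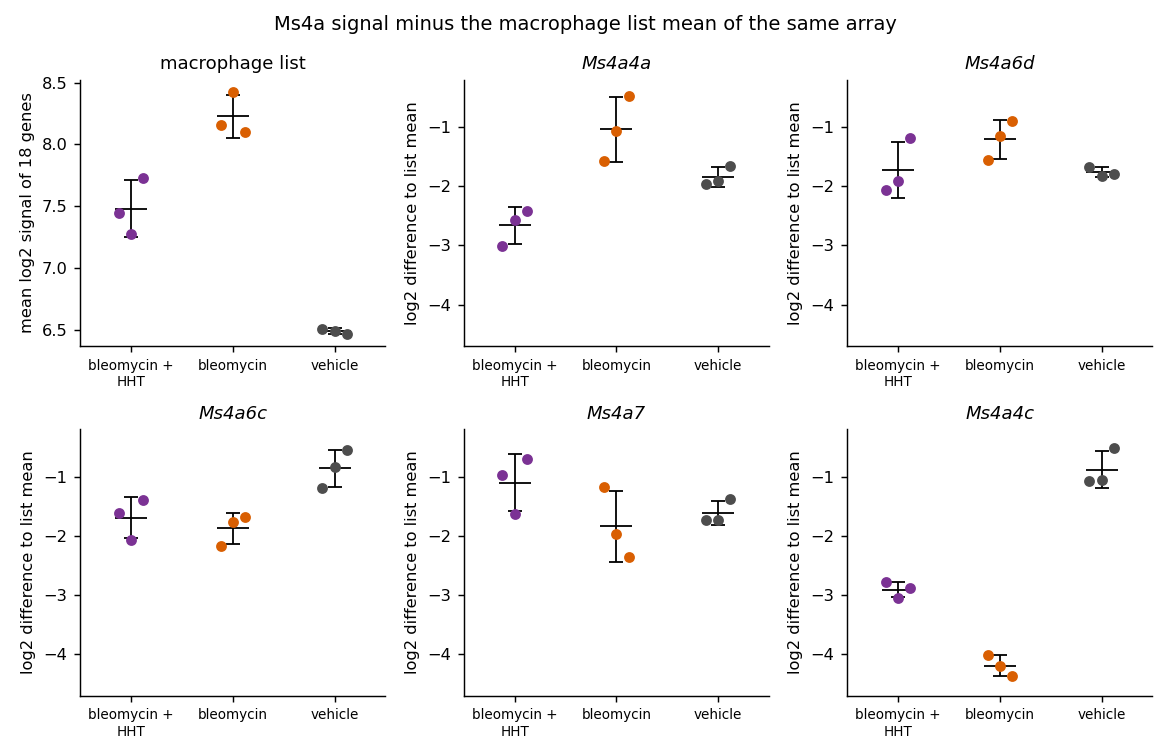
Log2 signal of each Ms4a gene minus the mean of 18 named macrophage genes on the same array, by group, with the groups in the order bleomycin with homoharringtonine (HHT), bleomycin and vehicle. The first panel holds the list mean itself, points are arrays and bars are group means with SD (n = 3 each). Ms4a4a is lowest with homoharringtonine (mean -2.66) and highest with bleomycin (-1.04), and the groups overlap for Ms4a7.

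Genes whose values ran most like each member over the 9 arrays were ranked by Pearson r among the 1908 named symbols, as a description, since the arrays share 3 groups. For Ms4a4a they were the integrin Itgam (r = 0.992), the coagulation factor chain F13a1 (0.988), Pi15 (0.986), Adssl1 (0.985) and the steroid-metabolising Akr1c14 (0.985). Itgam, of monocytes, neutrophils and some macrophages, had log2 signals of 5.97, 6.13 and 6.20 with homoharringtonine and bleomycin, against 7.30, 7.88 and 8.03 with bleomycin and 6.04, 5.98 and 6.20 with vehicle. As for Ms4a4a, its 3 bleomycin arrays stood above the 6 others, and the remaining groups overlapped. This likeness follows from the way Itgam was picked, so nothing is read from it. F13a1 differed by -1.82 for homoharringtonine with bleomycin over bleomycin, 1.84 for bleomycin over vehicle and 0.02 for homoharringtonine with bleomycin over vehicle.

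The genes most like Ms4a7, whose likeness to its pattern follows from the way they were picked, were Itm2a (r = 0.977), the matrix protein Aspn (0.973), the growth factor Igf1 (0.971), the pore-forming macrophage protein Mpeg1 (0.968) and the lectin receptor Clec4n (0.967). Igf1 differed by -0.10 for homoharringtonine with bleomycin over bleomycin, 1.17 for bleomycin over vehicle and 1.07 for homoharringtonine with bleomycin over vehicle, and Clec4n by 0.09, 1.90 and 2.00. After removal of group means, Ms4a7 and Mpeg1 had an r of 0.976, and Ms4a4a and Itgam one of 0.90. The ranking over the same arrays favours high values here, so nothing is read from them.

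For Ms4a6d the genes were the polyamine enzyme Sat1 (r = 0.991), Hist1h1c (0.990), Rps16-ps2 (0.986), the calcium-binding S100a4 (0.985) and Cndp2 (0.984). S100a4 differed by -1.44 for homoharringtonine with bleomycin over bleomycin, 2.49 for bleomycin over vehicle and 1.05 for homoharringtonine with bleomycin over vehicle. For Ms4a6c, r was lower, at 0.936 for Snord35a, 0.925 for the chemokine Ccl17, 0.909 for Srpx2, 0.906 for the monocyte chemokine Ccl12 and 0.905 for Cd80.

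Ms4a4c ran most like Cog5 (r = 0.984), the T cell receptor segment Trbj1-1 (0.982), the interferon-induced GTPase Gbp7 (0.974), Pcca (0.973) and the B cell transcription factor Spib (0.966). Gbp7 differed by 0.52 for homoharringtonine with bleomycin over bleomycin, -1.30 for bleomycin over vehicle and -0.78 for homoharringtonine with bleomycin over vehicle. Trbj1-1 differed by 0.98, -1.97 and -0.99 and Spib by 0.44, -1.48 and -1.03.

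**Figure D4:**
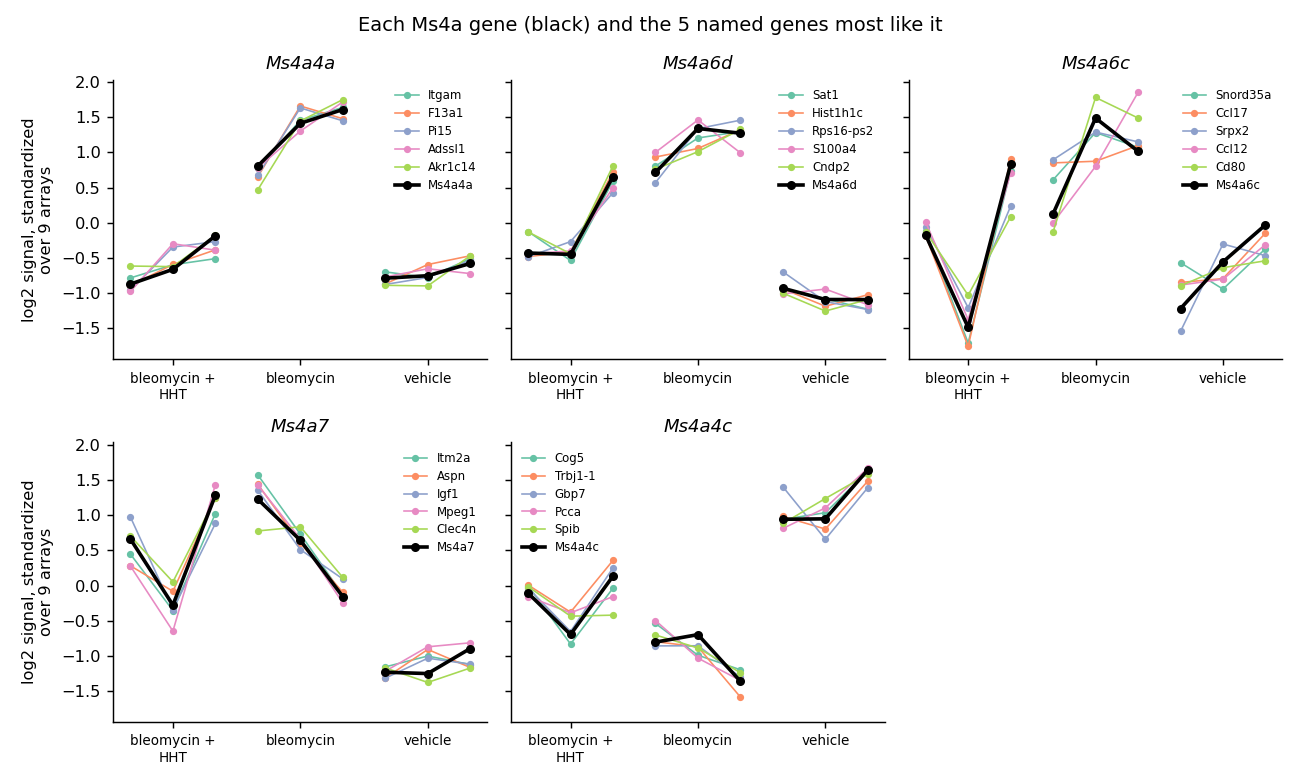
Log2 signal on each of the 9 arrays, standardized over the arrays, of each Ms4a gene (black) and of the 5 named genes most like it (colours), with 1 panel per Ms4a gene. The groups run from bleomycin with homoharringtonine (HHT) through bleomycin to vehicle, and lines join the arrays of a group only to guide the eye, since replicates have no order. The Ms4a4a set is high with bleomycin alone, the Ms4a7 set is above vehicle in both bleomycin-treated groups, and the Ms4a4c set is below vehicle in both. Each set follows its Ms4a gene by the way it was picked.

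Genes of the pathways tied to the family in the background above were described in the same way. Their counts too are fixed in part by the authors' listing. They stand beside the shares of named probe sets given with the macrophage list. Of 18 genes of alternative macrophage activation, 9 were named, and limma called 6 higher with bleomycin than with vehicle (median 1.25), 0 between homoharringtonine with bleomycin and bleomycin (median -0.82), where 1 was called without dim probe sets or without bleomycin replicate 1. It called 2 higher between homoharringtonine with bleomycin and vehicle (median 0.44), but 1 without vehicle replicate 1 or 2, bleomycin replicate 2 or homoharringtonine replicate 1 or 3, and 0 without vehicle replicate 3. Arg1, which breaks down arginine, differed by -2.86 for homoharringtonine with bleomycin over bleomycin, 3.64 for bleomycin over vehicle and 0.78 for homoharringtonine with bleomycin over vehicle. Retnla, another interleukin-4 target, differed by -0.32, 3.20 and 2.88.

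Of 21 glucocorticoid-inducible genes, 18 were named, and their mean log2 signal was 6.51 to 6.60 with homoharringtonine and bleomycin, against 7.68 to 7.81 with bleomycin and 5.92 to 6.10 with vehicle. Limma called 17 of them higher with bleomycin than with vehicle (median 1.52) and 8 lower with homoharringtonine and bleomycin than with bleomycin (median -1.16), where Fkbp5 fell by 1.98 (adjusted p 0.0175) and Pdk4 fell by 1.17 (adjusted p 0.0175). That count of 8 ran from 0 to 9 without single arrays, and it was 1 without bleomycin replicate 3, 5 without homoharringtonine replicate 3 and 0 without any one vehicle array, bleomycin replicate 2 or homoharringtonine replicate 1 or 2. Limma called 2 higher between homoharringtonine with bleomycin and vehicle (median 0.66), and 0 or 1 without any one array other than bleomycin replicate 3 or homoharringtonine replicate 2.

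Of 29 interferon-inducible genes, 8 were named, and limma called all 8 lower with bleomycin than with vehicle (median -1.0), among them the GTPase Gbp4 (-2.31). It called 0 in either comparison with homoharringtonine, with medians of 0.53 over bleomycin and -0.43 over vehicle, and 1 over bleomycin without bleomycin replicate 1. The count of 8 was 5 without vehicle replicate 1 or 3 or bleomycin replicate 2 or 3. Their mean log2 signal was 6.03 to 6.20 with homoharringtonine and bleomycin, against 5.38 to 5.75 with bleomycin and 6.48 to 6.74 with vehicle. This is the order of the Ms4a4c levels, but it is not particular to interferon genes. The named B cell, natural killer cell, alveolar epithelial and airway genes had it too. For B cell genes the means were 5.43 to 5.61, 4.67 to 5.09 and 6.10 to 6.27 in the same order of groups. A link of Ms4a4c to interferon was not tested. Of 11 Fc receptor and mast cell signalling genes, 4 were named, and all 4 were called higher with bleomycin than with vehicle, with Fcgr3 at 1.65 and Fcer1g, the chain shared by Fc and IgE receptors, at 1.06. None of the 4 was called in the other comparisons, with medians of -0.65 over bleomycin and 0.71 over vehicle. The list of Ms4a-like membrane proteins had no named gene.

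Markers of other leukocytes and of epithelium were described beside the Ms4a differences, again over named genes only. Their counts are fixed in part by the authors' listing. Between bleomycin and vehicle, limma called 47% of the 2010 named probe sets lower and 33.2% higher. In the comparison of bleomycin with vehicle, limma called lower all 4 named of 15 natural killer cell genes (median -1.50), 6 of 7 named of 14 B cell genes (median -1.25), both named of 10 dendritic cell genes (median -0.97), both named of 10 mast cell and basophil genes (median -1.29), and all 6 named of 12 type 2 alveolar epithelial genes (median -1.12). It called lower 2 of 3 named type 1 epithelial genes (median -0.76) and 5 of 7 named airway genes (median -0.97). It called higher 3 of 6 named neutrophil genes (median 1.51), and of 5 named monocyte genes 3 higher and 2 lower, and of 7 named alveolar macrophage genes 2 in each direction. No T cell gene of 18 was named.

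With homoharringtonine and bleomycin, summed signals lay between those of bleomycin and vehicle for natural killer cell genes, at 77 to 87, against 56 to 60 with bleomycin and 134 to 218 with vehicle. Monocyte genes summed to 245 to 281 with homoharringtonine and bleomycin, below the 434 to 718 with bleomycin and the 287 to 369 with vehicle, and Itgam was the only one of the 5 called between homoharringtonine with bleomycin and bleomycin. Neutrophil genes summed to 541 to 824 with homoharringtonine and bleomycin, against 915 to 1376 with bleomycin and 363 to 433 with vehicle, but their median differences were -1.73 for homoharringtonine with bleomycin over bleomycin and 0.07 over vehicle. Lcn2, an iron-binding protein of neutrophils that epithelium also makes, differed by 1.22 over vehicle, while S100a8, S100a9 and Retnlg differed by -0.09, -0.43 and -0.45. The part of these cell types in the Ms4a values was not tested.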

How the data were processed

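The authors deposited log2 signals of 41345 probe sets for 9 arrays, and tables of the probe sets they listed in 3 comparisons, with gene annotation, adjusted p-values and a signed fold score, negative where the first group is lower. The submitters' processing notes name R 3.5.1 and Affymetrix Power Tools, and no source used here states the normalisation or the build. Per the labels' protocols, total RNA was taken up in Trizol and labelled with a whole-transcript kit. Groups came from the sample labels, and the log2 values of the authors' tables equalled those of the 9 arrays (14904 values, largest difference 0).

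A model of 3 group means was fitted with limma 3.58.1 (R 4.3.3) to all probe sets and all 9 arrays, with empirical Bayes moderation and Benjamini-Hochberg adjustment over 41345 probe sets at 0.05. A fold is 2 to the power of the size of the log2 difference. The number of arrays limits the precision. The fit was tested on simulated data with 200 changed probe sets in each comparison. It recovered 0% of log2 changes of 0.5, 63% to 65% of changes of 1 and 87.5% to 91% of changes of 2. False calls ran from 0 to 14. A gene without a call may thus still have changed. The Ms4a genes and the 12 marker and 5 pathway gene lists were chosen with earlier results of these data known. All Ms4a genes found by the rule are described, and the 5 genes of highest r with each are named; pathway and marker genes are named as examples of their lists.

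Alternatives were quantile normalisation, median centring, median and MAD scaling, a fit on 2 groups, a trended robust prior, array weights, removal of dim probe sets, the replicate number as a block, group medians, and leaving out each array. Rescalings and left-out arrays for the Ms4a signal minus the macrophage list mean were added after seeing the data. Promoter windows and gene positions came from RefSeq (GRCm38.p6) tables. No window was used for Ms4a6d.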

Additional observations from a re-analysis of the deposited data

How the results depend on the processing

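The direction of the Ms4a differences was kept under every alternative run, except for Ms4a7 between homoharringtonine with bleomycin and bleomycin, and for Ms4a4a (-0.08) and Ms4a6c (-0.11) between homoharringtonine with bleomycin and vehicle without homoharringtonine replicate 3. Rescaling the arrays moved the 45 differences by at most 0.0618, with 1 change of sign, that of Ms4a7. Relative to the macrophage list, Ms4a7 between bleomycin and vehicle became 0.04 without bleomycin replicate 3, and Ms4a6d between homoharringtonine with bleomycin and vehicle became -0.23 without homoharringtonine replicate 3. Group medians moved the 15 differences by at most 0.555. That largest shift was for Ms4a6d between homoharringtonine with bleomycin and bleomycin, which became -1.82.

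Counts of calls depended on the processing. Between homoharringtonine with bleomycin and bleomycin, 39 probe sets were called, against 0 in a fit on those 2 groups, 16 with array weights and 243 without dim probe sets, and the single Ms4a call (Ms4a4a) became 0 with the 2-group fit and with array weights. Between homoharringtonine with bleomycin and vehicle, 209 probe sets were called, against 385 with array weights and 665 without dim probe sets, where 1 Ms4a gene (Ms4a4c, lower) was called in place of 0. Array weights change how much each array counts and dim probe sets change how many are tested; the cause was not tested further. Leaving out 1 array gave 1136 to 3396 called probe sets for bleomycin over vehicle (3218 with all arrays), 0 to 181 for homoharringtonine with bleomycin over bleomycin and 7 to 257 for homoharringtonine with bleomycin over vehicle, with 3 to 4, 0 to 1 and 0 to 0 Ms4a genes. Median and MAD scaling gave 1738 higher and 1497 lower for bleomycin over vehicle, against 1392 and 1826 with the values as deposited. The precision is limited by 3 arrays a group.

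Same-numbered arrays of different groups did not deviate together (9 pairs, r from -0.137 to 0.0934), so the numbers are not taken as a pairing. With the replicate block, 2175 probe sets were called for bleomycin over vehicle with 3 Ms4a genes, 0 for homoharringtonine with bleomycin over bleomycin with 0 Ms4a genes, and 22 for homoharringtonine with bleomycin over vehicle.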
